A study of Homo sapiens with 6 samples.

Results

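The miR-181 family was examined in small RNA libraries of extracellular vesicles (EVs) from MDA-MB-231, a human triple-negative breast cancer cell line. The members were taken by name, 4 guide strands from the 5p arm (hsa-miR-181a-5p, hsa-miR-181b-5p, hsa-miR-181c-5p and hsa-miR-181d-5p) and 2 strands from the 3p arm (hsa-miR-181a-3p and hsa-miR-181b-3p). All 6 were among the 832 miRNAs of the table, and all 6 had a count above 0 in at least 3 libraries, which put them among the 517 miRNAs tested. EVs of cells whose genotype is labelled WT (WT EV, n = 3) were compared with EVs of this line with ACO1 knockdown (ACO1KD EV, n = 3). ACO1 is cytosolic aconitase, which also acts as the RNA-binding iron regulatory protein IRP1. The EVs of both groups were pelleted by ultracentrifugation from medium of nearly confluent cells kept without serum EVs. How the knockdown was made is not given in the sources used here, and ACO1 mRNA itself is not measured in small RNA libraries. Nothing says whether the replicates came from separate cultures, so the p-values measure the spread between these libraries, which may be technical.

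A miRNA hairpin is cut by Dicer into a duplex of a 5p and a 3p strand. One of them, the guide, is usually kept in Argonaute and finds target mRNAs through its seed, while the other, the passenger, is mostly degraded. In the miR-181 hairpins the 5p strand is the guide. The family is best known from lymphocytes, where miR-181a tunes T cell receptor signalling, and it has also been studied in breast cancer, where it has been tied to transforming growth factor beta signalling and invasion.

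The mature sequences (RefSeq, GRCh38.p14) show why the 4 guides are treated as a family and why their reads can be hard to tell apart. Capitals mark the seed, bases 2 to 8 from the 5′ end. The guides share a single seed.
hsa-miR-181a-5p: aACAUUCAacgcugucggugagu
hsa-miR-181b-5p: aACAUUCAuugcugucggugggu
hsa-miR-181c-5p: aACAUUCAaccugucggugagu
hsa-miR-181d-5p: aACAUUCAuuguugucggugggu
Counted from 1 at the 5′ end, miR-181b-5p differs from miR-181a-5p by A9U, C10U and A21G, and miR-181d-5p differs from miR-181b-5p only by C12U. miR-181c-5p is 1 base shorter than miR-181a-5p, at an edit distance of 1. hsa-miR-4262 is the other miRNA of the reference with this seed, and it is not in the table. The 3p strands do not share the seed of the guides, and those of miR-181a and miR-181b differ from each other.
hsa-miR-181a-3p: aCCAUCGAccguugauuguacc
hsa-miR-181b-3p: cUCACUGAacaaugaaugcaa
hsa-miR-181a-2-3p: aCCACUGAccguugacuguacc
hsa-miR-181b-2-3p: cUCACUGAucaaugaaugca
The last 2 strands come from the second locus of miR-181a and of miR-181b and are no members, but they bear on the arm comparison below.

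In GENCODE release 29 (GRCh38) the family lies in 3 pairs of hairpins, each in an intron of a host gene, with no host exon overlapping a hairpin. MIR181A1 (chr1:198859044-198859153, minus strand) and MIR181B1 (chr1:198858873-198858982, minus strand) are 61 bases apart in the long noncoding gene MIR181A1HG. MIR181A2 (chr9:124692442-124692551, plus strand) and MIR181B2 (chr9:124693710-124693798, plus strand) are 1158 bases apart in MIR181A2HG, on the strand opposite to NR6A1. MIR181C (chr19:13874699-13874808, plus strand) and MIR181D (chr19:13874875-13875011, plus strand) are 66 bases apart in NANOS3. The miR-181a-5p and miR-181b-5p guides are each encoded identically at 2 loci, so a read of either cannot be placed on chromosome 1 or 9. The 3p strands can be placed, as the MIR181A1 and MIR181A2 hairpins show, in which capitals mark the 5p and the 3p strand.
MIR181A1: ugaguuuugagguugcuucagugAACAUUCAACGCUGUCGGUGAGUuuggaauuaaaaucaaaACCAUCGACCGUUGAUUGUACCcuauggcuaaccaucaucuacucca
MIR181A2: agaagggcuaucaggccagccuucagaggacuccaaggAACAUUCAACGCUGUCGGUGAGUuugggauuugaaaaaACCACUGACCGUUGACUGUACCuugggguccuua
The miR-181a-3p strand is thus the mark of MIR181A1 and miR-181a-2-3p that of MIR181A2.

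The libraries held 224948 to 230562 counts in WT EV and 67873 to 175924 in ACO1KD EV. TPM is here the share of a library's counts that a miRNA takes, multiplied by 1 constant and with no length term. miR-21-5p took 28.5% to 31.2% of the counts in WT EV and 11.7% to 18.4% in ACO1KD EV, so the share left for all other miRNAs differed between the groups. Fold changes were therefore taken on counts scaled with TMM factors (TMM CPM), and where the scaling decides a call, both scales are given. ACO1KD EV replicate 3 stood apart from replicates 1 and 2, with a chi-square per degree of freedom of 28.1 and 21.7 against 8.48 between those 2. Markers of blood cells were present in every library labelled MDA-MB-231, with 411 to 1074 counts of the leukocyte miRNA miR-142-3p and 64 to 314 of the red cell miRNA miR-451a. The 5 leukocyte and platelet markers added up to between 8311 and 9718 TPM in WT EV and between 13514 and 15240 TPM in ACO1KD EV (2 of 5 called higher, as were 2.51% of all tested miRNAs). The 4 red cell markers were at 2503 to 2676 TPM in sum in the controls and at 1597 to 2123 TPM after knockdown (2 of 4 called lower), and the 6 epithelial markers were at 858 to 985 and 619 to 992 TPM (1 of 6 called lower), where 6.0% of all tested miRNAs were called lower. The liver miRNA miR-122-5p had 96 to 332 counts, which is 1094 to 1324 TPM in WT EV and 985 to 1887 TPM in ACO1KD EV, and was not called. No marker on these lists was at 0 in every library, and the part of such RNA in the miR-181 results was not tested.

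Within the family 2 guides carried nearly all reads. By mean TPM hsa-miR-181a-5p ranked 70th of all miRNAs in WT EV and 80th in ACO1KD EV, hsa-miR-181b-5p ranked 82nd and 103rd, and hsa-miR-181a-3p ranked 143rd and 121st. The other members, hsa-miR-181c-5p, hsa-miR-181d-5p and hsa-miR-181b-3p, had at most 6 counts in any library. Together the 4 guides were read 431, 439 and 465 times in WT EV and 225, 79 and 308 times in ACO1KD EV.

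Both abundant guides were lower in ACO1KD EV on the TMM scale, while neither 3p member passed the test. hsa-miR-181a-5p, the main guide of the family, had 1293, 1344 and 1466 TMM CPM in WT EV replicates 1, 2 and 3 and 775, 616 and 1107 TMM CPM in ACO1KD EV. On this scale the groups did not overlap, as for 24.4% of the tested miRNAs, and replicate 3 was the knockdown library nearest to the controls. edgeR's quasi-likelihood test gave a log2 fold change of -0.70 (SE 0.20, 95% interval -1.10 to -0.30, Benjamini-Hochberg adjusted p = 0.0116), which is a 1.63-fold lower level. hsa-miR-181b-5p, the guide encoded next to miR-181a at both loci, had 783, 735 and 958 TMM CPM in WT EV and 369, 345 and 682 TMM CPM in ACO1KD EV. Its groups did not overlap either, and the same library was nearest to the controls. Its log2 fold change was -0.81 (SE 0.24, edgeR adjusted p = 0.0116), which is a 1.75-fold lower level. These 2 guides were the members called, 2 of 6 and both lower, where 8.51% of the 517 tested miRNAs were called in either direction and 6.0% were called lower. The median log2 fold change was -0.75 over the 6 members and -0.03 over all tested miRNAs.

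In deposited TPM the 2 guides overlapped between the groups. hsa-miR-181a-5p was at 1182, 1206 and 1231 TPM in WT EV (1206 ± 24.3, mean ± SD, n = 3) and at 858, 737 and 1208 TPM in ACO1KD EV (934 ± 245). hsa-miR-181b-5p was at 716, 659 and 804 TPM (726 ± 73.2) and at 409, 413 and 744 TPM (522 ± 192). Replicates 1 and 2 of ACO1KD EV were below every control library for both guides, and replicate 3 was inside the control range. The exact two-sided permutation test of log2(TPM + 1) gave p = 0.3 for each guide, where 3 against 3 libraries cannot go below 0.1. With library totals in place of TMM factors, which moved the median of all tested miRNAs from -0.03 to 0.32, edgeR gave -0.35 (adjusted p = 0.274) for miR-181a-5p and -0.46 (adjusted p = 0.207) for miR-181b-5p, and limma on log2(TPM + 1) gave -0.40 (adjusted p = 0.160) and -0.53 (adjusted p = 0.0847). These fits called 13.7% and 14.5% of all tested miRNAs, against 8.51% with TMM factors. Leaving out WT EV replicate 1 or 3 or ACO1KD EV replicate 1 ended both calls (edgeR adjusted p = 0.0550 to 0.111 for miR-181a-5p and 0.0558 to 0.153 for miR-181b-5p), leaving out WT EV replicate 2 or ACO1KD EV replicate 2 ended that of miR-181a-5p (edgeR adjusted p = 0.0625 and 0.0623), and without ACO1KD EV replicate 3 both were called with log2 fold changes of -0.95 and -1.19, as were 13.7% of the miRNAs then tested. The fits that lost a call called 3.94% to 7.39% of the miRNAs they tested.

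**Figure D1:**
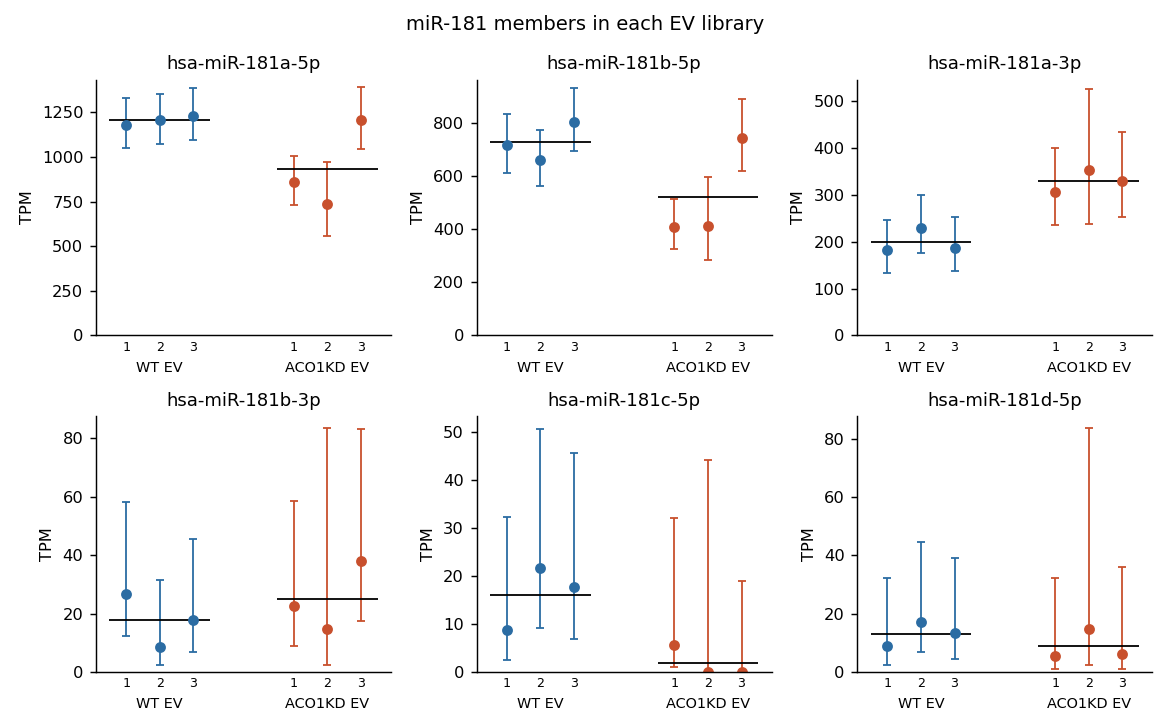
Deposited TPM of the 6 miR-181 members in each library, with a separate linear axis from 0 per member. Points are libraries (replicate number below), bars are 95% Wilson intervals of the count (for a count of 0, up to 3 counts), and black lines are group means. For miR-181a-5p and miR-181b-5p the replicate 3 of ACO1KD EV lies inside the control range, while all 3 libraries of ACO1KD EV lie above the controls for miR-181a-3p.

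Neither 3p member passed the test, and the better measured of the pair had a positive fold change. hsa-miR-181a-3p, the passenger strand of MIR181A1, was at 182, 230 and 187 TPM in WT EV (200 ± 26.3, n = 3) and at 307, 354 and 331 TPM in ACO1KD EV (330 ± 23.3). Each library of ACO1KD EV was above each of WT EV, as for 28.4% of the tested miRNAs, whose groups did not overlap in TPM in 1 direction or the other. In TMM CPM the values were 199, 256 and 222 in WT EV and 277, 295 and 303 in ACO1KD EV, also without overlap. The log2 fold change was 0.37 (SE 0.28, 95% interval -0.19 to 0.92, edgeR adjusted p = 0.581), and the exact permutation test gave p = 0.1, the smallest possible. The value was positive under each of the 18 alternatives (0.29 to 0.73), none of which passed the threshold.

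The low members could not be compared with the same precision. hsa-miR-181b-3p, the passenger of MIR181B1, was read 6, 2 and 4 times in WT EV and 4, 1 and 6 times in ACO1KD EV (log2 fold change 0.27, SE 0.83, edgeR adjusted p = 0.920). hsa-miR-181d-5p, a guide of the chromosome 19 pair, was read 2, 4 and 3 times and 1 time in each library of ACO1KD EV (-1.06, SE 1.12, edgeR adjusted p = 0.733). For both the groups overlapped, and the intervals of the log2 fold change run from -1.36 to 1.90 and from -3.26 to 1.14. hsa-miR-181c-5p, the other guide of chromosome 19, was read 2, 5 and 4 times in WT EV and 1, 0 and 0 times in ACO1KD EV. Its groups did not overlap, as for 24.4% of the tested miRNAs in TMM CPM and 28.4% in TPM. It met the filter of 3 libraries only through WT EV, where it was higher. A count of 0 allows up to 44.2 TPM in replicate 2 and 19.1 TPM in replicate 3 of ACO1KD EV, against 8.89 to 21.7 TPM in WT EV. The edgeR log2 fold change was -2.70 (SE 1.32, adjusted p = 0.230), and the ratio of summed counts per library total was 0.154 with an exact counting interval of 0.0036 to 1.06. The difference in the level of miR-181c-5p was not called, and it rests on 11 reads in WT EV and 1 in ACO1KD EV.

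**Figure D2:**
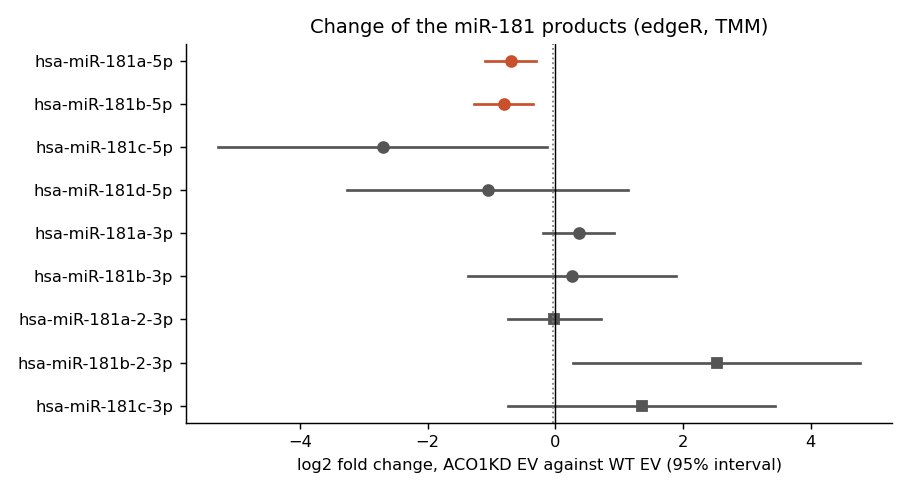
Log2 fold change of each miR-181 product between ACO1KD EV and WT EV from edgeR with TMM factors, on the horizontal axis, with 95% intervals. Circles are the 6 members, squares are 3 further strands of the same hairpins, orange marks an adjusted p under 0.05 and the dotted line is the median of all tested miRNAs. The miR-181a-5p and miR-181b-5p intervals lie below 0, as does that of miR-181c-5p, and that of miR-181b-2-3p lies above 0. The last 2 of these strands were not called, and the intervals of the low strands span several log2 units.

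The level of the guides as a sum followed the 2 abundant ones. The 4 guides summed to 2095, 2122 and 2461 TMM CPM in WT EV (2226 ± 204, n = 3) and to 1155, 972 and 1794 TMM CPM in ACO1KD EV (1307 ± 432), a log2 ratio of means of -0.77. In TPM the sums were 1962 ± 90.6 and 1467 ± 429, a log2 ratio of -0.42. On this scale the groups overlapped, with ACO1KD EV replicate 3 at 1958 TPM and WT EV at 1904 to 2067 TPM. The 2 passenger members summed to 217 ± 18.5 TPM in WT EV and 356 ± 22.4 TPM in ACO1KD EV, a log2 ratio of 0.71, and to 246 ± 18.8 and 314 ± 20.9 TMM CPM, a log2 ratio of 0.35. On either scale the mean guide sum was lower and the mean passenger sum higher in ACO1KD EV. No test was made of these sums.

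The ratio of the 2 arms of a hairpin within 1 library does not depend on how libraries are scaled. For miR-181a there were 6.49, 5.25 and 6.60 reads of 5p per read of 3p in WT EV and 2.80, 2.08 and 3.65 in ACO1KD EV. The groups did not overlap, as for 19.2% of the hairpin names, and replicate 3 was again the knockdown library nearest to the controls. Over the 125 hairpin names with both arms tested, edgeR's test of unequal change gave a log2 change of 5p relative to 3p of -1.07 for miR-181a (SE 0.35, adjusted p = 0.0487). By this test 5.6% of the hairpin names were called and 4.0% were called toward the 3p arm, miR-181a and miR-181c among them. The median change over all 125 names was -0.048.

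For miR-181b the ratios of 5p to 3p were 26.8, 76 and 45.2 in WT EV and 18, 28 and 19.5 in ACO1KD EV. The lowest control ratio, 26.8, was below the highest knockdown ratio, 28, as counted, and with 0.5 added to each count the groups did not overlap (log2 ratio 4.63 to 5.93 against 4.01 to 4.25). The change of -1.07 had the same size as for miR-181a but a larger error, set by 1 to 6 reads of the 3p strand per library (SE 0.69, edgeR adjusted p = 0.398). For miR-181c, with 0 to 5 reads of each arm per library, edgeR gave -4.06 (SE 1.33, adjusted p = 0.0487). Its 5p strand met the filter of 3 libraries through WT EV and its 3p strand met it through ACO1KD EV. The opposite change is thus in part tied to how this name came to be tested, and the call is not taken as support. The exact permutation test of the log2 ratio gave p = 0.1 for each of miR-181a, miR-181b and miR-181c (0.1 after adjustment over the 3), the smallest that 3 against 3 libraries allow.

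The arm call of miR-181a was close to the threshold. It was lost under 10 of 14 alternatives, always in the same direction (-1.29 to -0.90, adjusted p = 0.0042 to 0.193), among them the removal of any of the libraries other than ACO1KD EV replicate 3 (edgeR adjusted p = 0.0656 to 0.193) and a test on all miRNAs without the filter (edgeR adjusted p = 0.160). The miR-181c call was lost under 9 of 13 alternatives, with changes between -6.21 and -3.53. With a mean TPM of at least 10 required, the miR-181c name was not tested. The leukocyte and platelet marker sum, like miR-181a-3p, was higher in each library of ACO1KD EV than in each of WT EV, and its part in the arm ratio was not tested.

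**Figure D3:**
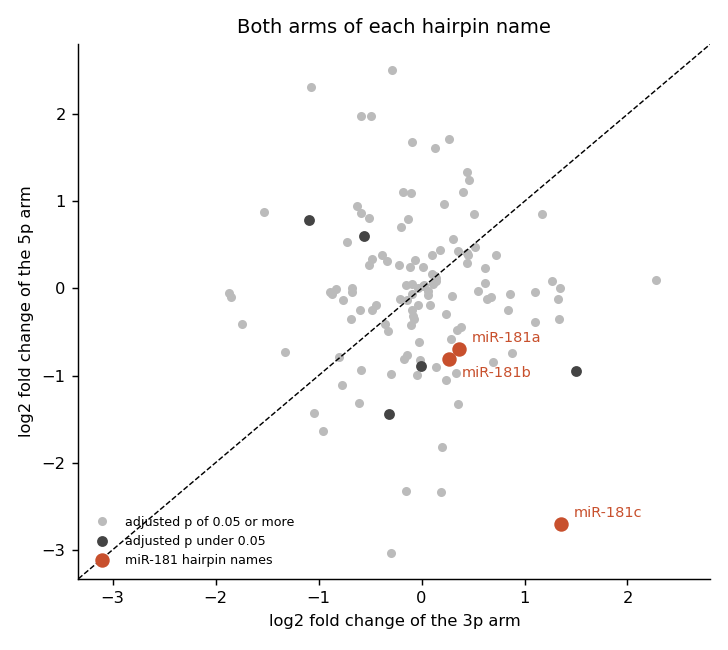
Log2 fold change of the 5p arm (vertical) against that of the 3p arm (horizontal) for the 125 hairpin names with both arms tested, ACO1KD EV against WT EV. Points below the dashed line of equal change moved toward the 3p arm. The 3 miR-181 names (orange) lie below it, miR-181a and miR-181b close together and miR-181c far below on few reads.

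The 3p strands that are no members tell the 2 loci apart. hsa-miR-181a-2-3p, the passenger of MIR181A2 on chromosome 9, was read 22, 21 and 24 times in WT EV and 18, 7 and 25 times in ACO1KD EV (log2 fold change -0.013, SE 0.37, edgeR adjusted p = 0.991). Per read of this strand there were 1.86, 2.52 and 1.75 reads of miR-181a-3p in WT EV and 3, 3.43 and 2.08 in ACO1KD EV. These groups overlapped, and the log2 ratio differed by 0.44 (exact permutation p = 0.2). A difference between the strands of the 2 loci was thus not shown.

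Read against the 3p strands of both loci together, miR-181a-5p had 4.22, 3.76 and 4.20 reads per 3p read in WT EV and 2.10, 1.61 and 2.47 in ACO1KD EV. These groups did not overlap, and in a fit chosen after seeing the data edgeR gave a change of -0.95 (adjusted p = 0.0788). hsa-miR-181b-2-3p, the passenger of MIR181B2, was read 1, 0 and 1 times in WT EV and 2, 2 and 6 times in ACO1KD EV (log2 fold change 2.53, SE 1.15, edgeR adjusted p = 0.173). With it added, the miR-181b ratios were 23, 76 and 36.2 against 12, 9.33 and 9.75, without overlap. In that fit, chosen after seeing the data, the change of -1.79 passed the threshold (edgeR adjusted p = 0.0455), as did 5.6% of the hairpin names. The strand added was itself read 2 times in all in WT EV and 10 times in ACO1KD EV, so the call is not taken as support. hsa-miR-181c-3p was read 0, 2 and 2 times and 3, 2 and 3 times (log2 fold change 1.35, edgeR adjusted p = 0.597), and hsa-miR-181d-3p is not in the table.

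The proportions of the 2 abundant guides to each other overlapped between the groups. hsa-miR-181a-5p made up 61.7%, 63.3% and 59.6% of the guide reads in WT EV and 67.1%, 63.3% and 61.7% in ACO1KD EV, and hsa-miR-181b-5p made up 37.4%, 34.6% and 38.9% and 32%, 35.4% and 38%. The Wilson 95% interval of the miR-181a-5p share ran from 52.3% to 73.1% in the shallowest library, ACO1KD EV replicate 2, and covered the shares of all other libraries. The log2 ratio of miR-181b-5p to miR-181a-5p was -0.73 ± 0.13 (SD, n = 3) in WT EV and -0.86 ± 0.19 in ACO1KD EV, a difference of -0.13 with overlapping groups (exact permutation p = 0.5, 0.75 after adjustment over the 3 ratios to miR-181a-5p). edgeR's test of each guide against its name family called 0 of the 4 guides (adjusted p = 0.995 for each, and 0 with an unadjusted p under 0.05), as it called 0 of all 137 miRNAs in such families (0.0%), 5 of which had an unadjusted p under 0.05.

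The study names CAUUG as the stretch of miR-33a that a docking model places at ACO1 and CAUUGC as the stretch changed in its pulldown, and the miR-181 guides differ in both. In that pulldown miR-33a changed at CAUUGC did not bring down ACO1, while a mutant changed outside it, at the earlier CAUUG, did. Binding of miR-33a to ACO1 was also reported by RNA immunoprecipitation and a mobility shift assay. In the lines below capitals mark CAUUG, searched on the mature strand.
hsa-miR-181b-5p: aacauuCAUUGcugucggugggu
hsa-miR-181d-5p: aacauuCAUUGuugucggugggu
hsa-miR-181a-5p: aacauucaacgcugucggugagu
hsa-miR-33a-5p: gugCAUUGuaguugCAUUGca
The stretch stands at bases 7 to 11 of miR-181b-5p and miR-181d-5p, at bases 4 to 8 and 15 to 19 of miR-33a-5p, and in neither miR-181a-5p nor miR-181c-5p. The longer CAUUGC stands at bases 7 to 12 of miR-181b-5p and 15 to 20 of miR-33a-5p, and in none of the other guides. The guides with CAUUG made up 37.8%, 35.5% and 39.6% of guide reads in WT EV and 32.4%, 36.7% and 38.3% in ACO1KD EV. The log2 ratio of these guides to those without it differed by -0.11 between the groups, which overlapped (exact permutation p = 0.5). miR-181b-5p, with both stretches, and miR-181a-5p, with neither, were both called lower, and their ratio is given above.

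CAUUG is present in 40 of 2351 mature miRNAs of the reference (1.70%) and in 18 of the 435 tested miRNAs that matched it by name. Of these 18, which include miR-181b-5p and miR-181d-5p, 6 were called lower and none higher, with a median log2 fold change of -0.50, beside 24 lower, 6 higher and a median of -0.06 over all 435. Among the 6 is miR-33a-5p, the miRNA from which the stretch was taken (log2 fold change -1.10, edgeR adjusted p = 0.0116). The study had reported less secretion of miR-33a after ACO1 knockdown from small RNA sequencing of these EV groups. The call of miR-33a-5p here thus reads the same data again and is not independent of that choice. The study also reported less miR-33a in EVs by RT-qPCR, with ACO1 knocked down in cells that overexpress miR-33a. Some of the 18 share a name family, as miR-181b-5p and miR-181d-5p do, and are not independent of each other. The 6 called had an average log2 CPM of 7.5 to 14.2 in the edgeR fit. A difference is called more easily at high counts, and the list was not matched to the 435 for level. CAUUGC, added after seeing the data, is present in 7 tested miRNAs, 3 of them called lower, miR-181b-5p and miR-33a-5p among them, with a median of -0.51. CAUUC, which all 4 guides hold at bases 3 to 7 and which overlaps CAUUG in miR-181b-5p and miR-181d-5p by 1 base, is present in 8 tested miRNAs, 3 of them called lower, with a median of -0.87. The 4 guides are themselves among those 8. GGAG, which no guide holds, is present in 32 tested miRNAs, 4 of them called lower, with a median of 0.10. These lists overlap in part, and no test was made of these lists.

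The miRNAs whose TMM CPM across the 6 libraries was most like that of miR-181a-5p were sought among the 93 that are no member and have a mean count of at least 100. Pearson's r of log2(TMM CPM + 1) over the 6 libraries was 0.98 for miR-222-3p and 0.97 for miR-425-5p, miR-23a-3p, miR-26a-5p and miR-100-5p. In TMM CPM the groups did not overlap for 4 of these 5 (24.4% of all tested miRNAs), which their choice by likeness to miR-181a-5p favours, and for miR-26a-5p replicate 3 of ACO1KD EV lay inside the control range. The corresponding r was 0.98 for miR-181b-5p and -0.67 for miR-181a-3p. The 6 libraries fall into 2 groups of 3, and all these values share the same scaling factors, so r is given as a description. Of the 5, miR-26a-5p was not called (edgeR adjusted p = 0.0660) and the others were called lower, with log2 fold changes of -0.89 to -0.51, where 6.0% of all tested miRNAs were called lower.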

How the data were processed

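EV small RNA of MDA-MB-231 cells was compared between WT EV and ACO1KD EV (n = 3 libraries each, grouped by sample title). Reads had been trimmed, filtered by size, cleared of other RNA classes and matched to miRBase by the authors. The submitters' processing notes name Bowtie2, StringTie and hg38. The authors deposited raw counts per miRNA and TPM values in a table of 832 names. TPM equalled the count over its library's total, brought to 1 sum in all libraries (largest departure 4.99e-05). How reads that match several miR-181 guides were assigned is not given in the sources used here. A count is a number of reads, so intervals and the limit that a count of 0 allows (3 counts) cover counting error only.

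The 517 miRNAs detected in 3 or more of the 6 libraries were tested with edgeR 4.0.16 (R 4.3.3, quasi-likelihood, TMM, Benjamini-Hochberg adjustment, called at an adjusted p under 0.05). The biological coefficient of variation, estimated in common over the tested miRNAs, was 20.8%. Unequal change of arms or family members was tested with edgeR's diffSpliceDGE, where the arm test compares both arms of a name jointly. Ratios in single libraries were compared by exact permutation tests (scipy 1.17.1). limma 3.58.1, DESeq2 1.42.0, other filters and scalings, a replicate block and the removal of each library were alternatives. The edgeR, DESeq2 and limma fits were checked on simulated counts. Named miRNAs are the 6 members, the further products of their hairpins or with their seed, and the 5 other miRNAs, members left out, with the highest Pearson r to hsa-miR-181a-5p. miR-21-5p and miR-33a-5p are given where a result turns on them, and miR-142-3p, miR-451a and miR-122-5p as examples of the marker lists, chosen after their values were seen. The members and lists were chosen with earlier results of these data known.

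Replicates differed by more than counting noise. The deviations of libraries with the same number correlated at 0.11, 0.12 and 0.0005, so the numbers were not taken as pairs.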

Additional observations from a re-analysis of the deposited data

How the results depend on the processing

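Both called guides, miR-181a-5p and miR-181b-5p, kept a negative log2 fold change under all 18 alternatives, and miR-181a-3p a positive one. The count of called members stayed at 2 under 9 alternatives and fell to 0 with library totals and with limma at pseudocounts of 1, 0.1 and 10. With library totals the log2 fold changes were -0.35 for miR-181a-5p and -0.46 for miR-181b-5p, and with limma they were -0.40 at each pseudocount and -0.53, -0.53 and -0.52. Leaving out 1 library gave 0 to 2 called members, -0.95 to -0.54 for miR-181a-5p and -1.19 to -0.62 for miR-181b-5p. The 5 of these fits that lost a call also called fewer miRNAs in all (3.94% to 7.39%, against 8.51%). The log2 ratio of the guide sums was -0.42 with library totals and in deposited TPM, and -1.06 to -0.59 with a library left out. The arm change of miR-181a no longer passed the threshold without a filter (-1.07), and, in fits chosen after seeing the data, with factors that leave out the 10 highest miRNAs (-1.06), with median centring (-1.07) and with the 3p strands of both loci summed (-0.95). With these strands summed miR-181b passed it (-1.79), a call not taken as support because the added strand had few reads. The corresponding miR-181c values were -4.08 without a filter, -4.05 without the 10 highest and -4.07 with median centring, none past the threshold. With a library left out the changes were -1.29 to -0.90 for miR-181a, -1.48 to -0.82 for miR-181b and -6.21 to -3.53 for miR-181c. Of the members' fold changes, that of miR-181b-3p changed sign with a library left out. It ranged from -0.15 to 0.65 and went to -0.059 without WT EV replicate 2 and to -0.15 without ACO1KD EV replicate 3. Against the family, miR-181b-5p ranged from -0.14 to 0.032 and was positive without ACO1KD EV replicate 1 and miR-181d-5p ranged from -0.76 to 0.10 and was positive without replicate 3. The log2 difference of the CAUUG guides to the others was -0.19 to -0.0074 with a library left out. The cause of these changes was not tested, beyond the fewer libraries or other genes in each fit. DESeq2 gave adjusted p = 0.0103 for miR-181a-5p and 0.0195 for miR-181b-5p, and gave none for the 3 low members. It called 17.4% of the 235 miRNAs to which it gave an adjusted p.

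With the replicate number as a block, edgeR gave -0.73 for miR-181a-5p and -0.86 for miR-181b-5p (adjusted p = 0.0048 and 0.0037). The count of called members stayed at 2, where 8.51% of the tested miRNAs were called. The arm changes under the block were -1.11 for miR-181a and -4.12 for miR-181c, no longer past the threshold (edgeR adjusted p = 0.0566 and 0.101). The block changed no other call of the members. The mean of the 3 CAUUG differences between libraries of the same number was -0.11. The libraries share only a number.

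Depth limits miR-181b-3p, miR-181c-5p and miR-181d-5p, with at most 6 counts per library, and ACO1KD EV replicate 2, in which 1 count is worth 14.7 TPM.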
